A study of Homo sapiens with 12 samples.

Results

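The genes described here are 39 genes of sterol synthesis, its control by the SREBP factors, and lipid handling, followed across 4 groups of a human leukaemia cell line. They were taken by symbol from a list that was chosen with earlier results of these data known, and are 39 of 55765 genes in the count table. They divide by role into 7 genes of the mevalonate segment, 11 enzymes from squalene to cholesterol, 5 SREBP factors and regulators, 6 genes of lipoprotein uptake and intracellular sterol transport, 4 genes of the LXR receptors and cholesterol efflux, and 6 genes of fatty acid synthesis. Of the 39, 37 had enough counts to be tested, and the 2 that did not are CYP51A1 and TM7SF2.

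RNA was sequenced from OCI-AML2, an established line from a human acute myeloid leukaemia. Clones grown from single cells carried a doxycycline-inducible construct of MEF2C, a transcription factor: the normal protein (wild type, WT) or S222A, in which alanine takes the place of a serine. Each line was sampled uninduced and induced, which gave 4 groups of 3 libraries. Induced cells had 600 ng doxycycline for 48 h in a 3 ml culture, with no volume of stock given, and uninduced cells had vehicle. The series title names MEF2C phosphorylation and resistance to chemotherapy as its subject. All 12 libraries therefore came from clones with a construct, and doxycycline-treated cells without one were not analysed here. The number of clones behind each construct is not stated, so construct and clone cannot be told apart in any comparison between the lines. Nothing in the labels says that the replicates of a group were separate cultures, so the p-values measure the spread between these libraries, which may be technical.

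As background, cells make cholesterol from acetyl-CoA through mevalonate, the isoprenoid units, squalene and lanosterol. When membrane sterol is low, SCAP escorts the SREBP precursors from the endoplasmic reticulum to the Golgi, where they are cut to release transcription factors: SREBP-2, encoded by SREBF2, acts mainly on sterol synthesis and uptake genes, and SREBP-1c from SREBF1 mainly on fatty acid synthesis genes. When sterol is plentiful, the INSIG proteins hold SCAP back, and INSIG1 is itself an SREBP target. The LXR receptors respond to oxidised sterols and switch on efflux transporters.

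Levels are given as CPM, the usual counts scaled to library size, here with TMM factors, and a gene was called when its adjusted p, from edgeR's quasi-likelihood test with Benjamini-Hochberg adjustment over all 11474 tested genes, was under 0.05. Library totals ran from 875710 to 13134791 counts, and the 39 genes together took 0.218% to 0.290% of each library. In every group 1 library was much deeper, with 5412391 to 13134791 counts and 5.03% to 7.0% mitochondrial counts, against at most 4489036 counts and 6.86% to 9.27% in the other 8. MEF2C itself stood at 736 ± 86.2 CPM in WT uninduced, 777 ± 90.3 in WT induced, 702 ± 98.2 in S222A uninduced and 887 ± 89.4 in S222A induced cells (SD, n = 3), and was called in no comparison. Counts per symbol do not separate construct from endogenous MEF2C. Of 8 markers of myeloid leukaemia cells, PTPRC was at 516 to 760.3 CPM, AZU1 at 116 to 517 and CD33 at 27.5 to 58.0, while CD68 had no count in any library and ANPEP reached 1.10 CPM. The rest of that list was low, with MPO at 0.69 to 19.3 CPM, LYZ at 1.99 to 23 and CSF1R at 2.04 to 8.21. The T cell, B cell, erythroid, stromal, hepatocyte and adipocyte lists of 3 genes each summed to at most 5.61 CPM in any library, and of the epithelial genes EPCAM and KRT19 had no count. The third epithelial gene, CDH1, was at 12.4 to 37.2 CPM: 16.4 to 37.2 in WT uninduced, 14.6 to 25.8 in WT induced, 19.1 to 35.0 in S222A uninduced and 12.4 to 25.4 in S222A induced libraries, which overlap.

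The promoters of 33 of the 39 genes were found in RefSeq's table (GRCh38.p14, 250 bases before to 50 after the first listed start), and they were searched on both strands for short sequences linked to sterol control. CCAAT, the box bound by NF-Y, a partner of SREBP on many sterol genes, was in 18 of the 33 windows (54.5%), against 34.6% of the 35116 windows in the table. It was in 8 of 9 windows of squalene-to-cholesterol genes (88.9%) and 4 of 6 of the mevalonate segment (66.7%), but in 1 of 5 of the fatty acid genes (20%). No window was found for ACAT2, FDFT1, SQLE, LPL, ABCG1 and FASN. The 9 squalene-to-cholesterol windows include CYP51A1 and TM7SF2, which were not tested, and so are not the 9 enzymes tested for expression. The sterol element core TCACNCCAC was in 1 member window, that of SREBF2 (3.03% against 1.13% of all windows). The E-box CACGTG, another sequence that SREBPs can bind, was in 5 (15.2% against 7.26%). An exact form of the repeat bound by LXR, 2 copies of AGGTCA in the same direction with 4 bases between, was in none of the 33. It was in only 7 of all 35116 windows (0.0199%), so its absence here says nothing of the members. Looser forms of the repeat were not searched. The motifs do not overlap each other in the stretches below. These 4 stretches are shown because they hold the motifs of INSIG1 and DHCR7, which were called on S222A induction, of MSMO1 with 4 CCAAT boxes, and of SREBF2 with the sterol element. MSMO1 and SREBF2 were not called on S222A induction. MVK and NSDHL, which are not shown, had 5 CCAAT boxes each. Capitals mark the motifs, and ATTGG is CCAAT on the other strand.
INSIG1, chr7:155297688-155297848, plus strand: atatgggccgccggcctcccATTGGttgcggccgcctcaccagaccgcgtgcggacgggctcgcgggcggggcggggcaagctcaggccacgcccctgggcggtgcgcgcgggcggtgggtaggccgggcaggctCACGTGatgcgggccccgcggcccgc
DHCR7, chr11:71448417-71448507, minus strand: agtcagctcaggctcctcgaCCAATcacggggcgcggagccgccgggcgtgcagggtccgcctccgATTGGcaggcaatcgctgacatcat
MSMO1, chr4:165327464-165327659, plus strand: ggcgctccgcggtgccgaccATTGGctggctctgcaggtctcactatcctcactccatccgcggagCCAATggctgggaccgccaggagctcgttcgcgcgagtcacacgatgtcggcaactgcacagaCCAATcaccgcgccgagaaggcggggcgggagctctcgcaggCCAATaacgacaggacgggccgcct
SREBF2, chr22:41832952-41833023, plus strand: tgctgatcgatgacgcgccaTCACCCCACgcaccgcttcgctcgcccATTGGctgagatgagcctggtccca
A match in these windows describes letters only. Among the genes called on S222A induction with a window in the table, CCAAT was in 1 of the 2 that rose and 1 of the 4 that fell. SQLE and LPL, which also fell, had no window.

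Induction in the S222A line changed 8 of the 37 tested genes. The feedback protein gene INSIG1 and the lipoprotein receptor gene VLDLR rose 2.89-fold and 2.54-fold. The sterol enzymes SQLE and DHCR7, the lipase LPL and the fatty acid genes ACACA, FADS1 and FADS2 fell, by between 1.65-fold and 2.52-fold. So 2 members were called higher, where 2.8% of all tested genes were, and 6 lower, where 1.66% were. In either direction 4.45% of genes were called. Because the list was chosen with earlier results of these data known, the shares here and below are description only. The libraries of the S222A groups did not overlap for 3 members that were higher and 15 that were lower on induction, against 14.4% and 13% of all tested genes. The median log2 fold change of the 37 members was -0.40, and that of all tested genes 0.01. Mitochondrial counts made up 7.0% to 8.80% in the S222A induced and 5.87% to 8.17% in the S222A uninduced libraries. In bulk RNA, fewer cells that express a gene and less of its RNA per cell cannot be told apart.

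Induction in the WT line left all 37 members uncalled, where 0.00872% of all tested genes (1 gene) were called. No member reached an unadjusted p under 0.05 by edgeR's quasi-likelihood test, as 195 of all genes (1.70%) did. None among 37 is near that share. DESeq2 and limma-voom called none of the 37 either. STARD4 was the 1 member whose WT libraries did not overlap (higher on induction, against 2.81% of all genes; no member was apart and lower, against 2.98%), at 16.5 ± 2.43 CPM uninduced and 21.7 ± 3.78 CPM induced, and its adjusted p was 1.00. The largest WT changes of members were in FDPS and ABCG1, at log2 0.75 ± 0.57 and 0.72 ± 0.49 (SE), both among the least counted members.

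**Figure D1:**
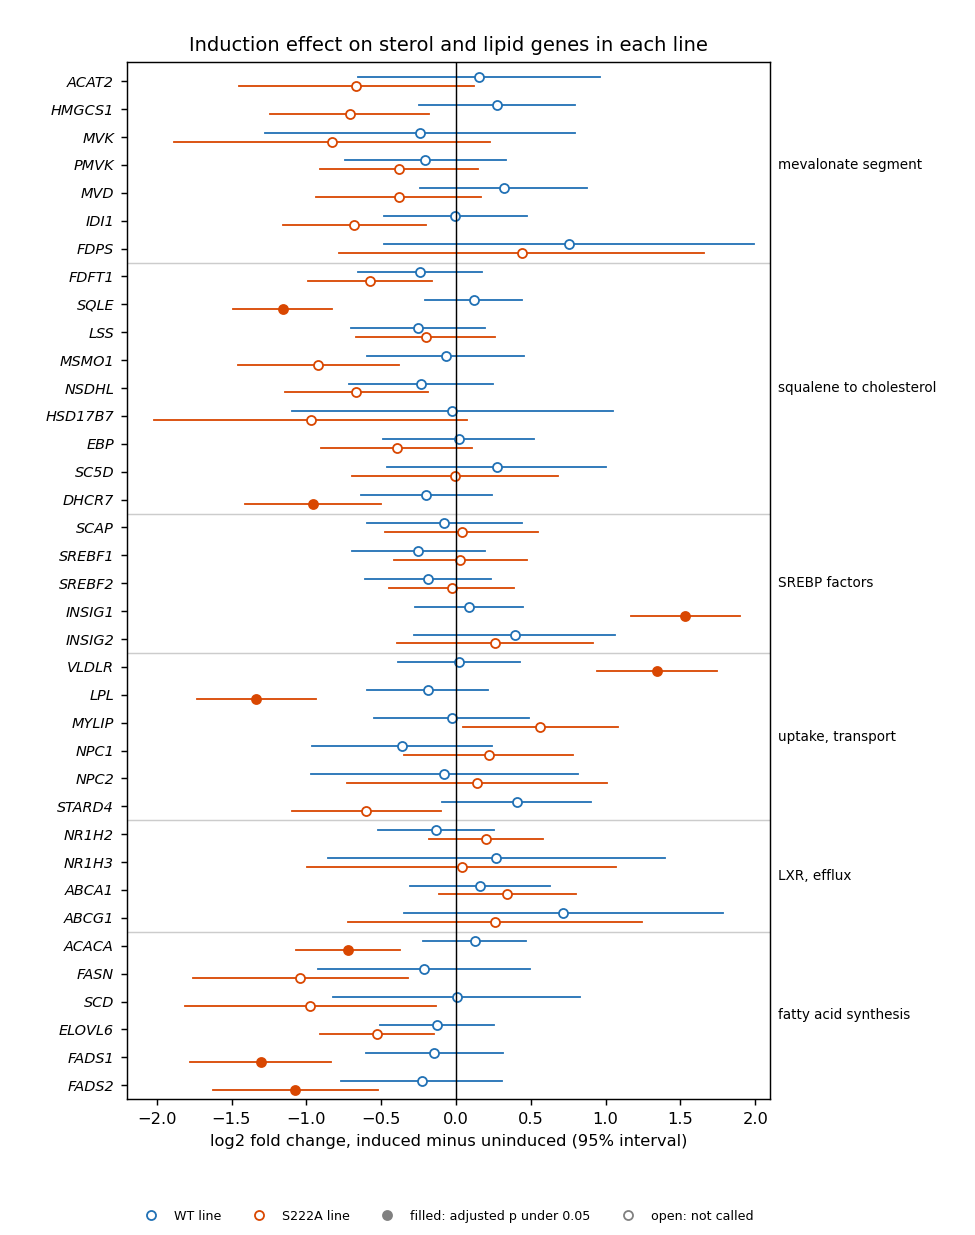
Log2 fold change of each of the 37 tested genes on induction (x axis), with its 95% interval, in the WT line (blue) and the S222A line (orange); filled points passed an adjusted p of 0.05. The 8 filled points are all in the S222A line, INSIG1 and VLDLR to the right and SQLE, DHCR7, LPL, ACACA, FADS1 and FADS2 to the left.

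Among the 5 SREBP factors and regulators, INSIG1 rose and the factors themselves were not called. INSIG1 encodes the protein that retains SCAP in the endoplasmic reticulum. Its level was 771, 842 and 699 CPM in the S222A induced libraries and 277, 290.2 and 229.97 CPM in the S222A uninduced ones. In the WT line it was 336, 254 and 304 CPM uninduced and 299, 280.25 and 370.3 CPM induced. The 3 S222A induced libraries stood above the other 9 with no overlap. The log2 fold change in the S222A line was 1.53 ± 0.17 (SE; 95% interval 1.17 to 1.90), with an adjusted p of 0.00034, and it stayed called in all 6 fits that left out 1 library of the groups compared. INSIG2, the sister gene, was between 5.72 and 11.8 CPM in every library, with a log2 fold change of 0.26 ± 0.30 that was not called.

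SREBF1, SREBF2 and SCAP had S222A induction log2 fold changes of 0.03 ± 0.21, -0.03 ± 0.19 and 0.04 ± 0.24, and none was called. SREBF2 was the more heavily counted of the SREBP genes, at 81.0 CPM in S222A uninduced replicate 3 and 109 to 160.5 CPM in the other 11 libraries. For SREBF2 the 95% interval of the change ran from -0.45 to 0.39, and for SREBF1 from -0.41 to 0.47. These are transcript levels, and the cleavage of the SREBP proteins is not measured by them.

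The mevalonate segment, from acetoacetyl-CoA to farnesyl diphosphate, had no called gene on S222A induction. Of its 7 genes 6 had a negative log2 fold change, and the median was -0.67 in the S222A line and 0.15 in the WT line. HMGCS1, which makes HMG-CoA, was at 15.9, 29.6 and 23.0 CPM in S222A uninduced and 11.4, 15.2 and 14.0 CPM in S222A induced libraries. The S222A groups did not overlap, but the log2 fold change of -0.71 ± 0.25 had an adjusted p of 0.128. IDI1, the isopentenyl diphosphate isomerase, had a log2 fold change of -0.68 ± 0.22 with an adjusted p of 0.105. The kinases MVK and PMVK and the decarboxylase MVD lay at -0.83 ± 0.49, -0.38 ± 0.25 and -0.38 ± 0.26. ACAT2, the cytosolic thiolase that opens the pathway, was at -0.67 ± 0.36, and 52.3% of its exonic bases overlap exons of opposite-strand genes in GENCODE v29. FDPS, farnesyl diphosphate synthase, was the exception in sign at 0.44 ± 0.57. It had only 129 counts over all 12 libraries, and GENCODE v29 names 8 pseudogenes after it, which held 6 counts; their part in its low count was not tested.

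From squalene to cholesterol, all 9 tested enzymes had a negative S222A log2 fold change, with a median of -0.67, and SQLE and DHCR7 fell. SQLE, squalene epoxidase, makes the first oxygenated intermediate of the sterol branch. It was at 99.1, 89.5 and 85.4 CPM in S222A uninduced libraries and at 34.6, 44.6 and 43.6 CPM after induction. In the WT line it was at 104, 111 and 92.3 CPM uninduced and 119, 105 and 109.7 CPM induced. The S222A induced libraries were the lowest 3 of the 12, with no overlap. SQLE was 2.23-fold lower, a log2 fold change of -1.16 ± 0.15 (95% interval -1.49 to -0.83; adjusted p = 0.00117), and stayed called in 6 of 6 fits without 1 library.

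DHCR7, the reductase that converts 7-dehydrocholesterol to cholesterol, was at 51.05, 41.0 and 61.3 CPM in S222A uninduced and 31.5, 25.2 and 22.2 CPM in S222A induced libraries. The WT libraries lay at 39.2 to 65.3 CPM, so the S222A induced group was below all other 9 libraries. Its log2 fold change was -0.96 ± 0.21 (adjusted p = 0.023), 1.94-fold lower. Leaving out S222A uninduced replicate 1 or 3, or S222A induced replicate 2 or 3, ended the call, with an adjusted p of up to 0.1. Its adjusted p was also 0.074 without the deepest library of each group.

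MSMO1, the sterol C4-methyl oxidase, was at 45.4, 40.6 and 35.0 CPM in S222A uninduced libraries and at 21.5, 21.2 and 22.2 CPM after induction. These 3 induced values lay within 1 CPM of each other and below the other 9 libraries, but the adjusted p was 0.0548 and the gene was not called (log2 fold change -0.92 ± 0.25). FDFT1, squalene synthase, was at -0.57 ± 0.19 (adjusted p = 0.115) and NSDHL, a sterol decarboxylating dehydrogenase, at -0.67 ± 0.22 (adjusted p = 0.11). LSS, EBP and SC5D, which make lanosterol, shift a double bond and desaturate the ring, lay at -0.20 ± 0.22, -0.40 ± 0.23 and -0.01 ± 0.32. HSD17B7 was at -0.97 ± 0.48 on 142 counts in all. CYP51A1, the lanosterol demethylase, had at most 4 counts and TM7SF2 at most 18 counts in any library, so neither was tested. In GENCODE v29, 83.2% of the exonic bases of CYP51A1 are also exons of other genes, AC000120.2 and AC000120.3 on the same strand and CYP51A1-AS1 on the other. The part of that overlap in its low count was not tested.

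**Figure D2:**
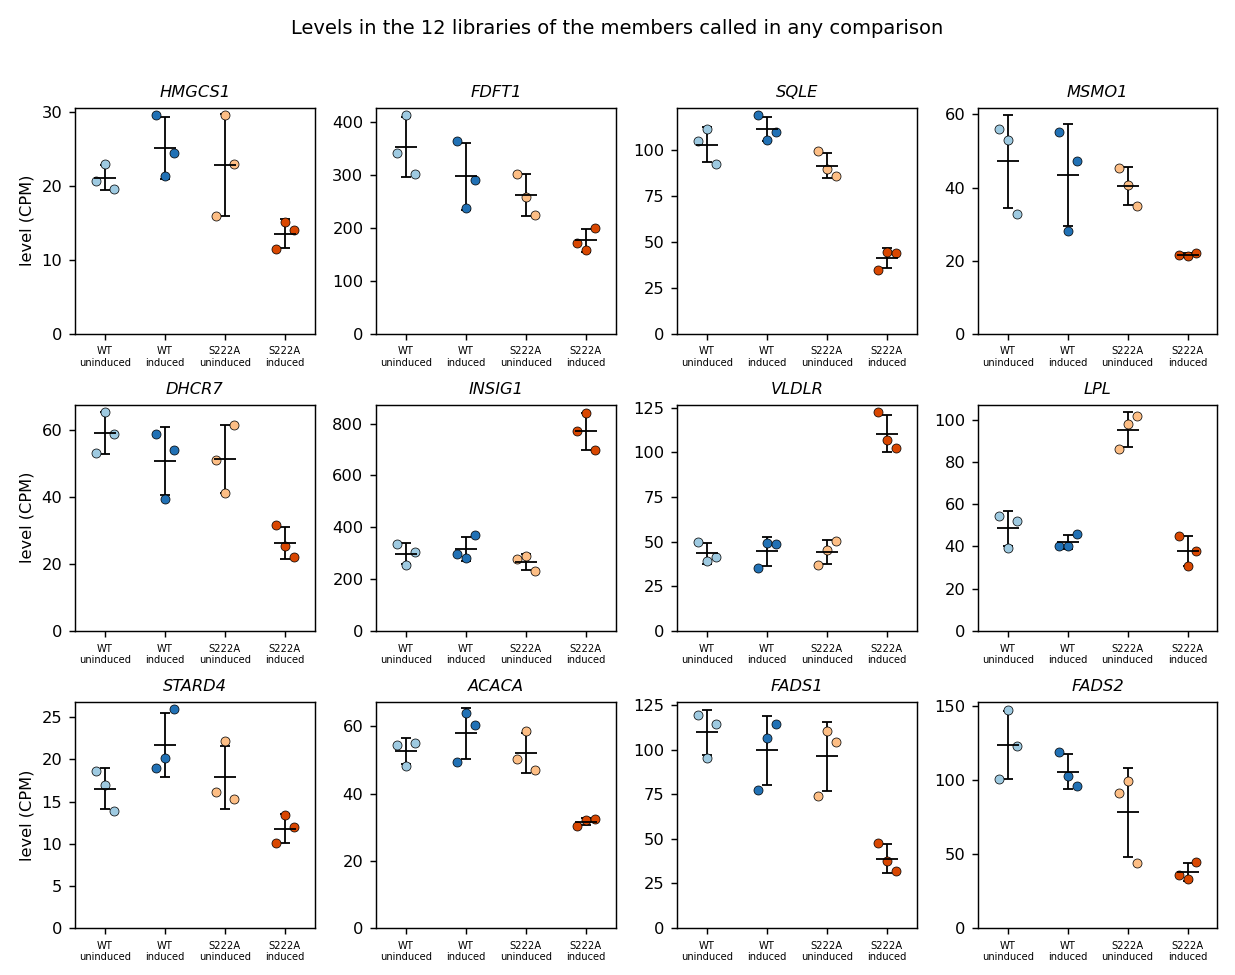
Levels in CPM (y axis, from 0) of the 12 genes called in at least 1 comparison, with 1 point per library, the group mean as a line and the SD as bars (n = 3). The S222A induced points are the highest for INSIG1 and VLDLR, and the S222A uninduced points are the highest for LPL.

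Lipoprotein uptake and transport genes moved in both directions in the S222A line. VLDLR, a receptor that takes up triglyceride-rich lipoproteins, was at 37.1, 45.1 and 50.4 CPM in S222A uninduced and 122, 107 and 102 CPM in S222A induced libraries. In the WT line it was at 49.96, 39.02 and 41.3 CPM uninduced and 35.4, 49.3 and 48.7 CPM induced. The 3 S222A induced libraries stood apart above the other 9. The log2 fold change was 1.34 ± 0.19 (95% interval 0.94 to 1.75; adjusted p = 0.0015), and the call stayed in 6 of 6 fits without 1 library. Exons of the antisense gene VLDLR-AS1 cover 7.90% of its exonic bases, and with no strand setting given the reads of both cannot be told apart there.

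LPL, the lipase that frees fatty acids from lipoprotein triglyceride, was the 1 member with a called difference between the uninduced lines. It was at 86.1, 98.1 and 102 CPM in S222A uninduced libraries and fell to 45.0, 30.5 and 37.7 CPM on induction. The WT libraries were at 54.5, 39.2 and 51.9 CPM uninduced and 40.2, 40.4 and 45.8 CPM induced. The S222A uninduced libraries were above all others, and the S222A induced ones overlapped the WT libraries. LPL was 2.52-fold lower on S222A induction (log2 -1.33 ± 0.18; adjusted p = 0.0015), called in 6 of 6 fits without 1 library. Between the induced lines its log2 difference was -0.17 ± 0.19 (95% interval -0.57 to 0.23) and not called.

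The other 4 transport genes were not called on S222A induction. MYLIP, a ubiquitin ligase that degrades lipoprotein receptors and is switched on by LXR, had a log2 fold change of 0.56 ± 0.24 (adjusted p = 0.221) with S222A groups that did not overlap. NPC1 and NPC2, which export cholesterol from lysosomes, lay at 0.22 ± 0.26 and 0.14 ± 0.40. STARD4, a cytosolic sterol carrier, lay at -0.60 ± 0.23 (adjusted p = 0.171).

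The LXR receptors and efflux pumps had no call in any comparison. NR1H2 (LXR beta) was at 21.6 to 31.7 CPM and NR1H3 (LXR alpha) at 1.51 to 4.38 CPM in all libraries. ABCA1, which loads cholesterol onto apolipoproteins, was at 26.4, 38.6 and 34.0 CPM in S222A uninduced and 45.0, 41.7 and 37.5 CPM in S222A induced libraries, which overlap. Its log2 fold change was 0.34 ± 0.21 (95% interval -0.12 to 0.81; adjusted p = 0.43). ABCG1 lay at 0.26 ± 0.46. The median of the 4 genes was 0.23 in the S222A line and 0.21 in the WT line.

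All 6 fatty acid synthesis genes had a negative S222A log2 fold change, with a median of -1.01 against -0.14 in the WT line, and 3 of them fell. FADS1, the delta-5 desaturase of polyunsaturated fatty acids, was at 73.9, 110.4 and 104 CPM in S222A uninduced libraries and 47.4, 37.5 and 31.8 CPM after induction. The WT libraries lay at 77.5 to 119 CPM, so the S222A induced group was the lowest with no overlap. The log2 fold change of FADS1 was -1.30 ± 0.22 (adjusted p = 0.00504), called in 6 of 6 fits without 1 library. FADS2, the delta-6 desaturase encoded next to it, was at 91.7, 99.3 and 43.8 CPM uninduced and 36.02, 33.2 and 44.6 CPM induced. Its S222A groups overlap through S222A uninduced replicate 3, a library of 930960 counts. FADS2 had a log2 fold change of -1.07 ± 0.26 (adjusted p = 0.0332), and the call held in only 1 of 6 fits without 1 library, that without S222A uninduced replicate 3; the adjusted p reached 0.156 without S222A uninduced replicate 2. FADS1 and FADS2 share 5.57% and 4.89% of their exonic bases with other genes, each other among them.

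ACACA, the acetyl-CoA carboxylase that commits carbon to fatty acids, was at 50.3, 58.7 and 47.1 CPM in S222A uninduced and 30.5, 32.1 and 32.4 CPM in S222A induced libraries. The induced values were tight and below the other 9 libraries, which ran from 47.1 to 63.9 CPM. Its log2 fold change was -0.72 ± 0.16 (adjusted p = 0.0248). This call also held in 1 of 6 fits without 1 library, that without S222A uninduced replicate 3, and the adjusted p reached 0.115 without S222A uninduced replicate 2.

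FASN and SCD, the fatty acid synthase and the stearoyl-CoA desaturase, varied widely between libraries of 1 group. FASN was at 334, 283 and 337 CPM in S222A uninduced and 141, 122 and 200.24 CPM in S222A induced libraries, and SCD at 282, 183 and 158 CPM and 79.7, 90.1 and 148 CPM. The S222A groups did not overlap for either gene, but with log2 fold changes of -1.04 ± 0.33 and -0.97 ± 0.39 and adjusted p of 0.0979 and 0.189 they were not called. Both were higher in the deepest libraries, by a mean log2 of 0.67 for FASN and 0.88 for SCD. In the 8 libraries without the deepest of each group, the log2 fold changes were -1.23 and -1.01 and both were called, with adjusted p of 0.000913 and 0.00436. The share of all genes called in those 8 libraries is not given here, and DHCR7 lost its call in them. Neither FASN nor SCD was called with a replicate block or in any fit that left out 1 library. DESeq2 called FASN and not SCD. ELOVL6, which elongates palmitate, was at -0.53 ± 0.18 (adjusted p = 0.116) and not called.

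**Figure D3:**
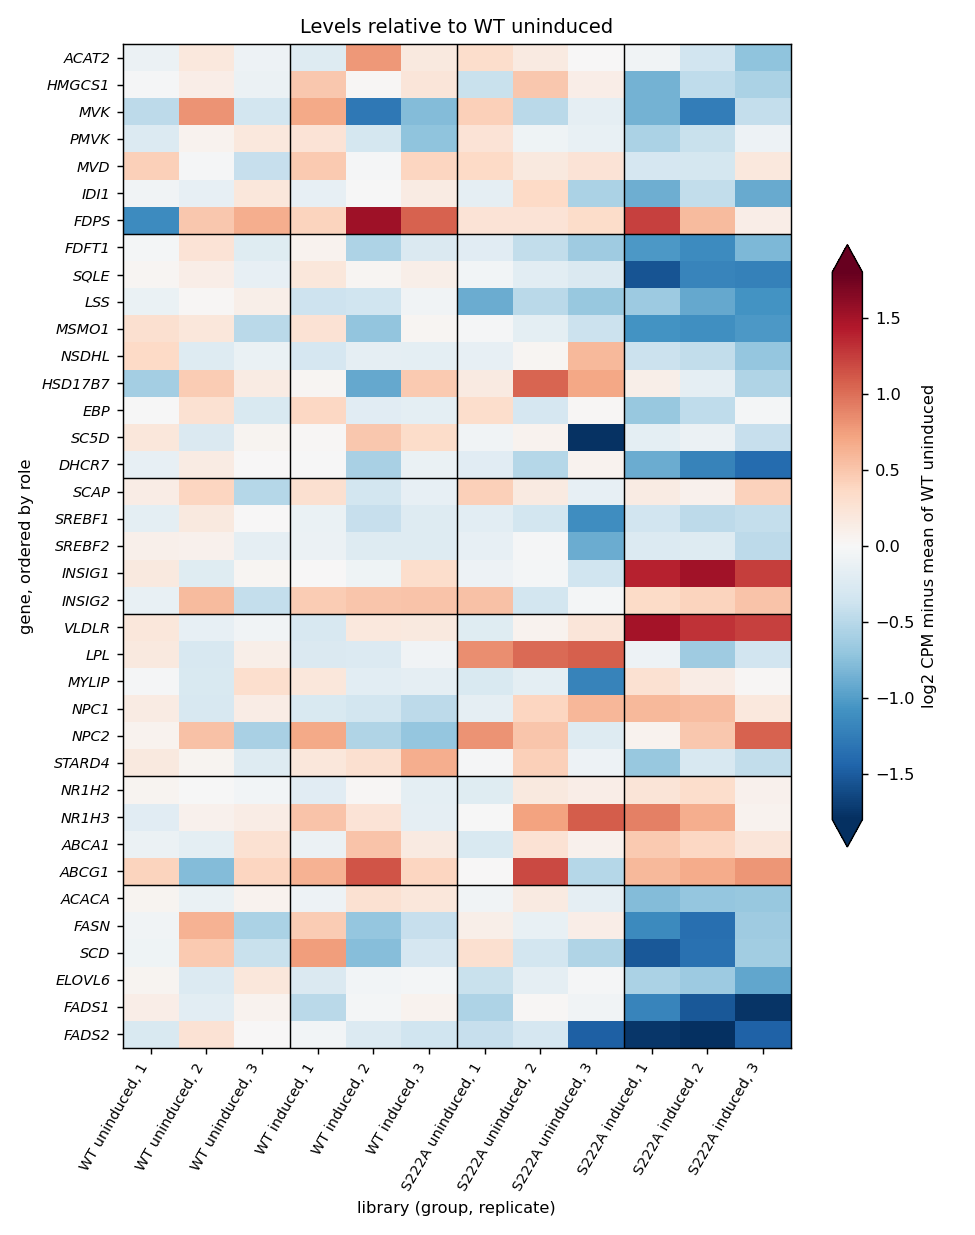
Log2 CPM of each tested gene (y axis, ordered by role) in each library (x axis), minus the mean of the 3 WT uninduced libraries; red is higher and blue lower, and the colours end at 1.8 in either direction. The 3 S222A induced columns are blue over most enzymes of sterol and fatty acid synthesis and red for INSIG1 and VLDLR.

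By library, the median of the 9 squalene-to-cholesterol genes, taken as log2 CPM minus the WT uninduced mean, was -0.68, -0.92 and -0.81 in S222A induced cells. In the other 9 libraries it ran from -0.36 to 0.15. The same median for the fatty acid genes was -1.17, -1.35 and -0.81 in S222A induced cells and -0.23 to 0.07 in the others. For the mevalonate segment it was -0.57, -0.40 and -0.42 in S222A induced cells and -0.10 to 0.40 in the others. In each of these subsets the 3 S222A induced libraries were the lowest. For the LXR subset the S222A induced medians of 0.53, 0.51 and 0.15 overlapped the other groups.

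The effect of S222A induction was compared with that of WT induction in 1 test of the difference, in which 0.0784% of all tested genes were called. INSIG1 was the 1 member called, in the higher direction (0.0523% of genes), and none was called lower (0.0261%). It had a difference of log2 1.44 ± 0.24 (95% interval 0.93 to 1.96; adjusted p = 0.0458). The S222A induced libraries were above all S222A uninduced ones, while the WT groups overlapped. That call was lost in all 12 fits that left out 1 library, with an adjusted p of up to 0.248 without WT uninduced replicate 1. SQLE had a difference of -1.28 ± 0.21 with an adjusted p of 0.051 and was not called. VLDLR (1.32 ± 0.26; adjusted p = 0.141), FADS1 (-1.16 ± 0.30; adjusted p = 0.335), LPL (-1.14 ± 0.26; adjusted p = 0.262), STARD4 (-1.0 ± 0.33; adjusted p = 0.532) and HMGCS1 (-0.98 ± 0.34; adjusted p = 0.598) were not called. Which members passed depended on the fit. With a term for the deepest libraries 7 members were called for the difference, where 1.28% of all tested genes were: INSIG1, SQLE (adjusted p = 0.00049), VLDLR (0.000763), FADS1 (0.00125), LPL (0.00734), SCD (0.0269) and ACACA (0.0372). DESeq2 called 4, INSIG1, SQLE, VLDLR and LPL, and it also called more of all tested genes for the difference than the main fit did. The gene counts are in the last section.

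Between the induced lines, 11 members differed, where 6.34% of all tested genes did. INSIG1 and VLDLR were higher in S222A induced than in WT induced cells (3.73% of genes were higher), by log2 1.28 ± 0.17 (adjusted p = 0.000797) and 1.33 ± 0.19 (adjusted p = 0.00129). The 9 lower members (2.61% of genes were lower) spanned 4 roles. They were HMGCS1 of the mevalonate segment, FDFT1, SQLE, MSMO1 and DHCR7 of the sterol branch, the carrier STARD4, and ACACA, FADS1 and FADS2. SQLE was 2.71-fold lower (log2 -1.44 ± 0.15; adjusted p = 0.000163), FADS2 2.78-fold lower (adjusted p = 0.00549) and FADS1 2.56-fold lower (adjusted p = 0.00342). The others were between 1.69-fold and 2.08-fold lower. This comparison shares the S222A induced libraries with the induction comparison above.

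FDFT1, a heavily counted enzyme, was at 365, 239 and 292 CPM in WT induced and 171, 159 and 199.9 CPM in S222A induced libraries, which do not overlap (log2 -0.76 ± 0.19; adjusted p = 0.0339). Before induction it was at 343, 415 and 302 CPM in WT and 303, 259 and 224 CPM in S222A libraries. The S222A mean was thus lower already, at 262 against 353 CPM, a difference that was not called. HMGCS1 was at 29.5, 21.3 and 24.5 CPM in WT induced libraries, above the 11.4 to 15.2 CPM of S222A induced ones (log2 -0.91 ± 0.24; adjusted p = 0.0413). MSMO1 was at 55.2, 28.0 and 47.1 CPM in WT induced libraries (log2 -1.06 ± 0.25; adjusted p = 0.0244). STARD4 was at 19.0, 20.2 and 26.1 CPM in WT induced and 10.0, 13.4 and 11.96 CPM in S222A induced libraries (log2 -0.88 ± 0.23; adjusted p = 0.0371). The libraries of the induced lines did not overlap for any of these 4 genes. In all, 15 members were lower and 4 higher with no overlap, against 12.9% and 15.2% of tested genes. ACACA, FADS1, FADS2, INSIG1, SQLE and VLDLR stayed called in 6 of 6 fits without 1 library. DHCR7 stayed called in 3 of 6, with losses without WT induced replicate 3 or S222A induced replicate 2 or 3 (adjusted p up to 0.0656). FDFT1 and MSMO1 stayed called only without WT induced replicate 2 (adjusted p otherwise up to 0.142 and 0.0945), STARD4 only without WT induced replicate 1 (up to 0.174), and HMGCS1 in none of the 6 (up to 0.155).

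Before induction the lines differed in LPL alone among the members, where 0.392% of all tested genes differed (0.34% higher and 0.0523% lower in S222A). LPL was 1.97-fold higher in S222A uninduced than in WT uninduced libraries (log2 0.98 ± 0.19; adjusted p = 0.0413), with no overlap (6.24% of genes were higher with no overlap). The call was lost in all 6 fits without 1 library, with an adjusted p of up to 0.21 without S222A uninduced replicate 2. LSS had a log2 difference of -0.72 ± 0.22 and FADS2 of -0.63 ± 0.25, with adjusted p of 0.325 and 0.585, and were not called although their libraries did not overlap, as was so for 3 members in this direction against 6.1% of genes.

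Further genes of the same pathways, which are not among the 39, were counted in the same fit. Among 24 tested sterol genes outside the list, the esterifying enzyme SOAT1, the lipoprotein receptor LRP8 and the receptor SCARB1 were lower in S222A induced than in WT induced cells, by log2 -0.50 ± 0.13, -0.67 ± 0.17 and -0.75 ± 0.18, with adjusted p of 0.0389, 0.0386 and 0.03. None of the 24 was called higher in that comparison or on S222A induction. The median S222A induction change of the 24 genes was -0.14.

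Of 27 tested fatty acid and neutral lipid genes outside the list, LPIN1 rose on S222A induction. LPIN1 encodes lipin 1, a phosphatidate phosphatase that makes diacylglycerol. It was at 23.5, 36.9 and 25.2 CPM in S222A uninduced and 82.1, 81.8 and 65.8 CPM in S222A induced libraries (log2 1.42 ± 0.28; adjusted p = 0.0137), which do not overlap, and the other 26 were not called. In the WT line LPIN1 was at 57.0, 33.2 and 54.7 CPM uninduced and 34.9, 70.6 and 48.4 CPM induced. Its mean before induction was thus lower in S222A than in WT cells, at 28.6 against 48.3 CPM, a difference that was not called. Its S222A induced libraries overlapped the WT induced ones. Between the induced lines FADS3, a neighbour of FADS1 and FADS2, was higher in S222A cells (log2 1.78 ± 0.43; adjusted p = 0.0279), at 6.23, 7.14 and 7.25 CPM against 1.90, 3.36 and 1.58 CPM. The WT induced values rest on only 13, 3 and 6 counts, so they lie near the floor. Before induction FADS3 was at 4.08, 4.92 and 1.10 CPM in S222A and 2.02, 2.70 and 1.63 CPM in WT libraries. The mitochondrial citrate carrier SLC25A1 was lower in S222A than in WT cells after induction (log2 -0.74 ± 0.20, adjusted p = 0.045). It was low in the S222A line before induction as well, at a mean of 29.5 CPM against 57.5 CPM in WT uninduced cells. After induction the means were 29.4 CPM in S222A and 48.8 CPM in WT cells. Its S222A induction change was log2 -0.04 ± 0.20 and not called.

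Of 7 tested LXR partners and targets outside the list, none was called on S222A induction. RXRA, the dimer partner of the LXRs, was higher in S222A induced than in WT induced cells (log2 0.71 ± 0.18; adjusted p = 0.0334).

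The direction of the called genes was the same within the deepest and within the other libraries. Except for FADS2, their S222A libraries did not overlap, so any split of those libraries gives the same direction. The shared direction is therefore no check of the calls or of depth, and the sizes are given as description. In the deepest library of each S222A group, 1 against 1 and so with no test, the log2 fold change was 1.33 for INSIG1, 1.45 for VLDLR, -1.18 for SQLE, -1.18 for LPL, -1.20 for FADS1, -1.03 for FADS2, -1.19 for DHCR7 and -0.63 for ACACA. In the 8 other libraries the same genes were at 1.63, 1.28, -1.13, -1.41, -1.35, -1.13, -0.80 and -0.78. HMGCS1 was at -0.17 in the deepest and -0.998 in the other libraries. With a term for the deepest libraries in the model, 17 members were called on S222A induction, where 17.9% of all tested genes were (8.77% higher and 9.12% lower). These were the 8 named above and MVK, IDI1, FDFT1, MSMO1, NSDHL, EBP, FASN, SCD and ELOVL6, all lower. MVK was among the genes most raised in the deepest libraries, by a mean log2 of 1.08 (percentile 97.9 of all tested genes).

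**Figure D4:**
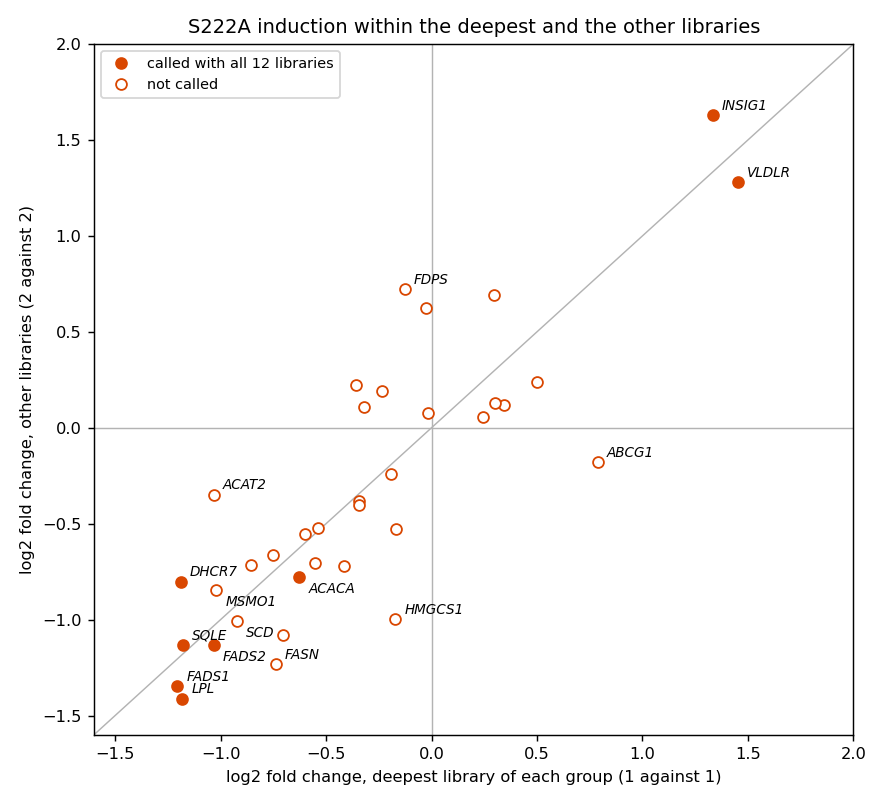
Log2 fold change of each gene on S222A induction in the deepest library of each group (x axis, 1 against 1) and in the other libraries (y axis, 2 against 2), with filled points for the 8 genes called with all 12 libraries and a line of equality. NR1H3, which had too few counts in the other libraries, is not drawn. The 8 filled points lie in the same direction on both axes, which was set in advance for genes whose S222A libraries do not overlap.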

How the data were processed

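RNA of 12 OCI-AML2 libraries was measured as counts per gene symbol. The authors deposited 1 table of raw counts with no normalization. The submitters' processing notes list build hg19 with STAR 2.4, HTSeq 0.6.1 and DESeq2 but give no roles; annotation and strandedness were not given in the sources used here. Columns were matched to samples by the names in the header, which lacks 1 tab; S222A columns carry the name MEF2C without S222A.

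Genes were filtered with filterByExpr (minimum count of 10), leaving 11474 with 99.5% of counts. All 12 libraries entered 1 edgeR 4.0.16 model (R 4.3.3) with a mean per group, TMM factors and robust quasi-likelihood F tests, giving 5 comparisons. P-values were adjusted by Benjamini-Hochberg over all tested genes. SE is the size of the log2 fold change over the root of F. The floor of 3 counts was 0.239 to 3.36 CPM, covering counting error only. Alternatives used DESeq2 1.42.0, limma 3.58.1 (voom), RLE size factors, no filter, a replicate block, a depth term, or fewer libraries.

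Members, role lists and promoter motifs were chosen with earlier results of these data known. All members may be named; called ones are given per library, and of the other pathway lists called genes are named, up to 6 per list, apart from some that are not reported here.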

Additional observations from a re-analysis of the deposited data

Results flagged for a closer look

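The effect of induction on INSIG1 differed between the S222A and the WT line. The difference of the effects was log2 1.44, with an adjusted p of 0.0458 from edgeR's quasi-likelihood test. It was past the threshold with all 12 libraries, with RLE size factors, DESeq2, limma-voom and no filter on low counts, without the deepest libraries and with a term for them, and not with a replicate block (adjusted p = 0.243) or in any of the 12 fits that left out 1 library.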

How the results depend on the processing

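No result changed direction past a threshold under any setting tried. In the order WT induction, S222A induction, difference of the effects, induced lines and uninduced lines, 1, 511, 9, 727 and 45 genes and 0, 8, 1, 11 and 1 members were called. The replicate block gave 0, 235, 0, 350 and 22 genes and 0, 5, 0, 7 and 0 members. Whether the replicate numbers pair the libraries could not be settled from the counts. Of 18 pairs with the same number, 6 had a correlation of deviations over 0.1 (range -0.531 to 0.638). A library correlated best with its own number in 6 of 36 cases. The deepest libraries of the groups correlated with each other at 0.615 to 0.757. They do not all carry the same replicate number, so this check cannot separate depth from pairing. A term for the deepest libraries gave 6, 2052, 147, 2480 and 218 genes, and 17, 7 and 20 members on S222A induction, for the difference and between the induced lines. DESeq2 gave 4, 811, 36 and 83 genes in all but the induced lines, and 4 members for the difference of the effects, adding SQLE, VLDLR and LPL. Limma-voom gave 0 genes on WT induction and 2 members for the difference of the effects, adding SQLE. Without a low-count filter 2, 22 and 91 genes were called on WT induction, the difference and the uninduced lines, and 2 members for the difference. Without the deepest libraries 0 genes were called on WT induction and 0 members between the uninduced lines. With only the groups compared 0, 482 and 9 genes were called on WT induction and between the induced and uninduced lines, and 0 members between the uninduced lines. Fits without 1 library gave 0 to 0 genes on WT induction, 187 to 329 genes and 5 to 7 members on S222A induction, 0 to 4 genes and 0 to 0 members for the difference, 249 to 582 genes and 6 to 9 members between the induced lines, and 17 to 30 genes and 0 to 0 members between the uninduced lines; these fits have fewer libraries. Of single called members, 23 values under other settings and 56 without 1 library lost the call. Of the role medians, 13 values under other settings and 32 without 1 library moved by more than the SD between libraries, and 251 and 184 did not. The 1 against 1 values of the deepest libraries were added after seeing the data. Where a call was lost to a setting other than fewer libraries, the cause was not tested. The shallowest library, of 875710 counts, limits what can be said of members under about 3.36 CPM.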
